A study of Mus musculus with 477 samples.

Results

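The 39 genes described here were a list of 24 genes of glucose uptake and glycolysis and 15 genes of the hypoxia response, chosen by name, with earlier results of these data known. Of these, 38 had a row among the 21004 genes of the count table (23 glycolysis and 15 hypoxia genes), and the level of *Gapdh* was not analysed here, while its promoter is among those counted. They were followed in 165 tumor and 312 luminal cells from 11 female mice. Each cell had been caught in its own chamber of a C1 chip (Fluidigm) and its RNA made into full-length cDNA there. All mice carried MMTV-Cre, a recombinase driven by a mammary tumor virus promoter that deletes floxed alleles in mammary epithelium. Br mice had *Brca1* fl/fl, Br53 mice had *Brca1* fl/fl and *Trp53* fl/+, and 53 mice had *Trp53* fl/+ with wild type *Brca1*. Luminal cells (L) came from virgin mice (v) or from pregnant mice (p) at day 12.5, aged 3 to 4 months, and were sorted for CD24 high, CD29 low and the green signal of the mT/mG reporter. Tumor cells (T) were sorted for CD24 alone. The strains were mixed C57BL/6 and 129/Sv. The mice were vBrL (35 cells), vBr53L (39), v53L (40), pBrL-1 (71), pBrL-2 (38), pBr53L (53) and p53L (36) for luminal cells and BrT1 (47), BrT2 (37), Br53T1 (30) and Br53T2 (51) for tumors, so that every group but pBrL was a single mouse.

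Glycolysis splits glucose into pyruvate, and lactate dehydrogenase with the lactate transporters lets a cell go on doing so without using oxygen. When oxygen is scarce, the prolyl hydroxylases of the Egln family stop marking the HIF alpha subunits for destruction, and HIF then binds short DNA elements with the core ACGTG or GCGTG, the hypoxia response elements, beside many glycolysis genes and genes of angiogenesis, acid balance, mitophagy and collagen modification. In growing tumors the pathway is known to respond both to poor blood supply and to oncogenic signals.

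Depth per mouse was 40338926 to 115827852 reads, 170209 to 3550564 reads per cell. Levels are given as CPM, the usual scale on which the reads of a gene, added up over the cells of a mouse, are divided by all reads of that mouse. They are relative to all RNA captured and not per cell. The mouse was the replicate. *Brca1* lay between 2.03 and 31.8 CPM in luminal mice with floxed *Brca1* (n = 5), 5.21 and 6.99 CPM in the 2 others and 1.70 to 57.2 CPM in tumors; a count over the whole gene cannot show the loss of the floxed part alone. *Trp53* stood at 5.05 and 49.8 CPM in BrT1 and BrT2 and at 67.2 and 140 CPM in Br53T1 and Br53T2, so it was higher in the tumors labelled *Trp53* fl/+. The 6 luminal markers summed to 7240 to 12783 CPM in the luminal mice and to 4059 to 5617 CPM in BrT2, Br53T1 and Br53T2, but to 512 CPM in BrT1, where *Epcam* was at 19.2 CPM and *Vim* at 4080 CPM. The 6 basal markers summed to 5335 CPM in Br53T2 and between 20.96 and 274 CPM in the remaining tumors. BrT1 thus went against an epithelial identity, and the called members, *Vegfa*, *Car12* and the *Aldoc* to *Aldoa* ratio are also given without it.

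The summed levels of both gene groups were higher on average in tumors, without overlap for glycolysis and with overlap for hypoxia. The 23 glycolysis genes summed to 4965, 7651, 7370 and 4325 CPM in BrT1, BrT2, Br53T1 and Br53T2, and to 2466 to 3630 CPM in the 7 luminal mice. Every tumor was above every luminal mouse. The mean was 6078 ± 1679 CPM (SD, n = 4) in tumors and 3170 ± 445 CPM (SD, n = 5) in *Brca1*-deficient luminal mice. The 15 hypoxia genes summed to 1042, 1259, 624 and 1084 CPM in BrT1, BrT2, Br53T1 and Br53T2, and to 397 to 721 CPM in luminal mice. The sum in Br53T1 was lower than in pBrL-1 (721 CPM) and pBr53L (666 CPM), so the hypoxia sums of tumors and luminal mice overlapped in that tumor. No test was made of either sum, because the genes were listed with earlier results of these data known.

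**Figure D1:**
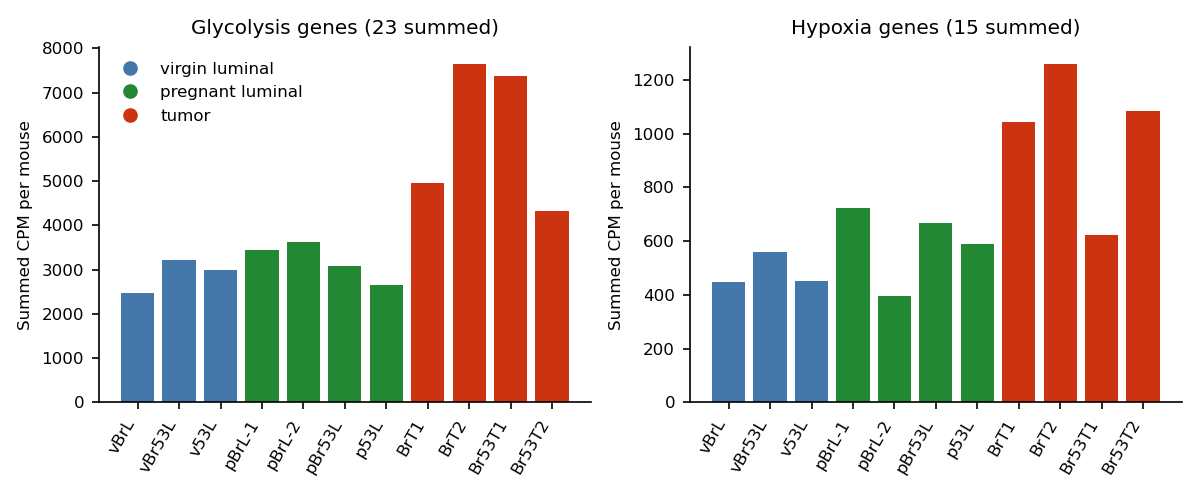
Summed CPM of the 23 glycolysis genes (left) and the 15 hypoxia genes (right) in each of the 11 mice; each bar is 1 mouse, colored by virgin luminal, pregnant luminal or tumor, and the axes start at 0. The glycolysis sum of every tumor (4325 CPM or more) was above that of every luminal mouse (3630 CPM or less), whereas the hypoxia sum of Br53T1 (624 CPM) lay within the luminal range of 397 to 721 CPM.

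The first comparison asked which of these genes differ between tumor cells and *Brca1*-deficient luminal cells (4 tumors against vBrL, vBr53L, pBrL-1, pBrL-2 and pBr53L). In edgeR's quasi-likelihood test over 12978 genes, 3 of the 38 members passed a Benjamini-Hochberg adjusted p of 0.05, all of them higher in tumors: the collagen prolyl hydroxylase subunit *P4ha1*, the aldolase *Aldoa* and the lactate exporter *Slc16a3*, the last from 2 reads in the luminal arm. Over all genes 0.609% were called, 0.393% as higher and 0.216% as lower. All 38 members passed the low-count filter, but *Slc16a3* did so only through its reads in the tumors. The fitted log2 fold change was above 0 for 30 members and below 0 for 8, with a median of 0.79 over the members (0.60 over the glycolysis and 1.05 over the hypoxia genes) against 0.06 over all genes tested. In 9 members every tumor was above every *Brca1*-deficient luminal mouse (*Aldoa*, *Tpi1*, *Eno1*, *Pkm*, *Slc16a3*, *Vegfa*, *Bnip3*, *Car12* and *P4ha1*), and in 0 every tumor was below. Over all genes these shares were 5.01% and 2.51%.

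**Figure D2:**
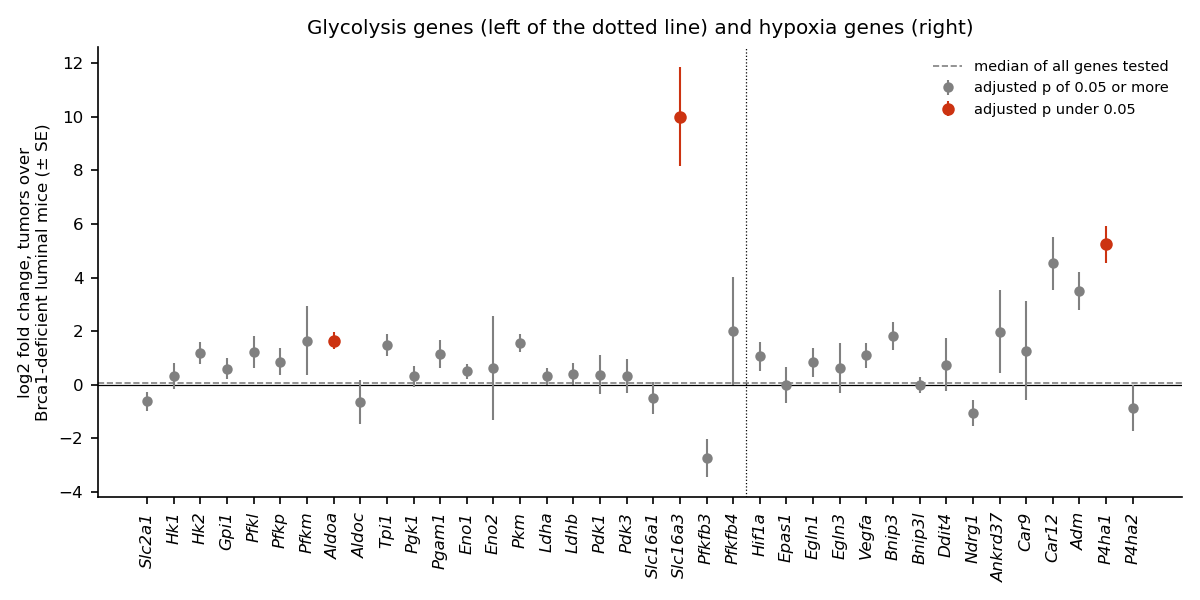
Fitted log2 fold change of each measured member, 4 tumors over 5 *Brca1*-deficient luminal mice, with its standard error (bars); red points passed an adjusted p of 0.05 and the dashed line is the median of all genes tested (0.06). *Slc16a3* (10.01), *P4ha1* (5.23) and *Aldoa* (1.64) passed, and *Pfkfb3* (-2.74) had the lowest value.

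*P4ha1* (chromosome 10, 59323296 to 59373304, plus strand, GENCODE vM21 on GRCm38) encodes the catalytic subunit of the enzyme that hydroxylates prolines in collagen. It stood at 343, 227, 90.8 and 88.4 CPM in BrT1, BrT2, Br53T1 and Br53T2. In the *Brca1*-deficient luminal mice it stood at 7.17 CPM in vBrL, 5.19 in vBr53L, 3.12 in pBrL-1, 0.960 in pBrL-2 and 6.12 in pBr53L. The groups were far apart, and v53L (0.0744 CPM) and p53L (2.20 CPM) were as low as the others. The fitted log2 fold change was 5.23 ± 0.68 (SE), with an adjusted p of 0.0131. The call was lost without pBrL-1 (adjusted p = 0.0515, log2 fold change 5.11) and was made without each of the other 8 mice, BrT1 included (4.83, adjusted p = 0.0287). It was also lost against only the pregnant (0.0517) and only the virgin luminal mice (0.302). The gene was widespread among tumor cells: after every cell was thinned to 100000 reads, 93.6% of cells of BrT1, 89.2% of BrT2, 63.3% of Br53T1 and 52.9% of Br53T2 had a read, against 0 to 15.1% in luminal mice. The paralog *P4ha2* did not share this pattern, at 2.77 to 10.9 CPM in tumors and 2.58 to 30.0 CPM in *Brca1*-deficient luminal mice (log2 fold change -0.87 ± 0.86, adjusted p = 0.709).

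*P4ha1* belongs with collagen, so the mesenchymal and fibroblast markers were set beside it. All 8 of these markers reached 1 CPM in at least 1 tumor and 3 of 8 in at least 1 *Brca1*-deficient luminal mouse. The count of 8 rested on BrT1, the only tumor in which *Col3a1* did so. Their sum was 14044, 6511, 162 and 670 CPM in BrT1, BrT2, Br53T1 and Br53T2, against 3.08 to 715 CPM in luminal mice. The highest luminal sum was nearly all *Dcn* (711 CPM in vBrL), a proteoglycan gene, whereas *Vim* did not overlap, at 4080, 306, 156 and 212 CPM in the 4 tumors and 0.159 to 30.3 CPM in luminal mice. *Fn1*, which encodes fibronectin, stood at 4926, 6200, 2.90 and 357 CPM in the tumors and at most 67.96 CPM in luminal mice. *Vim* was thus above all luminal mice in all 4 tumors and *Fn1* in all but Br53T1. The other markers were highest in BrT1 and had at most 240 reads in BrT2, where *P4ha1* was second highest. *Col1a1* had 1844, 0, 77 and 67 reads in BrT1, BrT2, Br53T1 and Br53T2, *Col1a2* 42219, 6, 15 and 158 and *Col3a1* 684, 0, 1 and 0. *Dcn* had 394599, 0, 0 and 7945 reads, *Pdgfra* 9499, 1, 93 and 591 and *Pdgfrb* 7518, 240, 1 and 418. The part of these markers in the result was not tested. Endothelial markers summed to at most 13.7 CPM in any mouse, with *Cldn5* at 0 in all 4 tumors. Endothelial and hematopoietic cells had been depleted before sorting, so these levels do not describe the whole tumors.

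*Slc16a3* (chromosome 11, 120948480 to 120960868, plus strand) encodes MCT4, a monocarboxylate transporter known for exporting lactate from glycolytic cells. It stood at 17.7, 4.55, 4.81 and 2.47 CPM in BrT1, BrT2, Br53T1 and Br53T2, and had 2 reads in all in the 5 *Brca1*-deficient luminal mice, both in pBrL-2. The pooled level in tumors was 1743 times that in these mice, with an interval of 483 to 14395 that covers counting error only. The adjusted p was 0.0459, and the fitted log2 fold change of 10.01 ± 1.84 (SE) depends on how a count of 0 is treated. With these reads the gene could enter the test only through the tumors, where it is high, so its call is given as a description and not as support. The level was low also in tumors, with a read in 40.4% of cells of BrT1 and 10.0% to 13.7% of cells of the other tumors. The pregnant *Brca1* wild type mouse p53L, outside this comparison, had 4.54 CPM with a read in 2 of its 36 cells after thinning, and with all 7 luminal mice in the luminal arm the adjusted p was 0.546. The call was also lost when any single mouse was left out (adjusted p from 0.0502 to 0.0981).

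*Aldoa* (chromosome 7, 126795234 to 126800751, minus strand; the name has 2 entries in the annotation) encodes the main aldolase of glycolysis, which splits fructose bisphosphate. It stood at 1109, 1894, 1265 and 1229 CPM in BrT1, BrT2, Br53T1 and Br53T2. The *Brca1*-deficient luminal mice had 284 CPM in vBrL, 431 in vBr53L, 517 in pBrL-1, 410 in pBrL-2 and 389 in pBr53L. The lowest tumor was well above the highest of these, and above v53L (572 CPM) and p53L (482 CPM). The log2 fold change was 1.64 ± 0.31 (SE), with an adjusted p of 0.0472. It was called without BrT1 (1.75, adjusted p = 0.0498) and lost without each other single mouse (adjusted p from 0.0578 to 0.122, log2 fold change from 1.36 to 1.72).

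The stretch of 250 bases before a RefSeq start of each of these genes was read on GRCm38.p6, to show whether the 3 called members carry the core of a hypoxia response element there. They are shown with *Bnip3*, which has 5 such cores, and *Car12*, which has none in this window. *Aldoa* has 3 listed starts, of which 2 have a core, and 1 of these is shown. The windows of *Slc16a3* and *Aldoa* lie inside the GENCODE spans of these genes, which begin further upstream. Capitals mark ACGTG or GCGTG on either strand (CACGT or CACGC when read on the shown strand), with overlapping cores merged, and each line reads 5′ to 3′ on the gene's strand.
*P4ha1* (chr10:59323046-59323295, plus strand): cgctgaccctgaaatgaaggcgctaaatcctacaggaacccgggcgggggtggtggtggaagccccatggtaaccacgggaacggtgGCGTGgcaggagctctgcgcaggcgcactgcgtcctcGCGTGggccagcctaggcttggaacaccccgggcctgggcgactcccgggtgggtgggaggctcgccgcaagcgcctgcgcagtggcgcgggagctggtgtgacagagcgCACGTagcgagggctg
*Slc16a3* (chr11:120948817-120949066, plus strand): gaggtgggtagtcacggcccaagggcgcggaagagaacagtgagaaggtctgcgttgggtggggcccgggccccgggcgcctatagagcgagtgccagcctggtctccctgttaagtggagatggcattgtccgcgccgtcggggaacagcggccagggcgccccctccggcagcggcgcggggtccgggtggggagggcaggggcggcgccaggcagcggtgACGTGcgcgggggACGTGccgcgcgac
*Aldoa* (chr7:126799255-126799504, minus strand): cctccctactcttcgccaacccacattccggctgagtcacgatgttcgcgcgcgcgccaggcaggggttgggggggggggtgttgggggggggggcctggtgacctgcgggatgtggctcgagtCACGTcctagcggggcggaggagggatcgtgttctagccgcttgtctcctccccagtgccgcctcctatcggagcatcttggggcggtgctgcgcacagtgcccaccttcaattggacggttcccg
*Bnip3* (chr7:138909507-138909756, minus strand): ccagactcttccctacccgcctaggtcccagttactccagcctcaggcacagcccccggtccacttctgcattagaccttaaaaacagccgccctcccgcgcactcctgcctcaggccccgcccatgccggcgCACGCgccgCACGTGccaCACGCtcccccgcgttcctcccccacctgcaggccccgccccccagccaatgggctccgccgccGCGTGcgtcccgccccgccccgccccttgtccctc
*Car12* (chr9:66713436-66713685, plus strand): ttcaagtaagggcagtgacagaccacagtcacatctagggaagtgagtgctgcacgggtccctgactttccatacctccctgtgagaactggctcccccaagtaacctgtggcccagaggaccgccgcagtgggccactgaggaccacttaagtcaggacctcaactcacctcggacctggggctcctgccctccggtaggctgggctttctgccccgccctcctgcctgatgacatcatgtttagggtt

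A core of either kind lay within 250 bases of at least 1 listed start in 32 of the 36 members that had an entry (88.9%), against 41.5% of all 27025 genes with an entry. The share was 21 of 24 glycolysis genes and 11 of 12 hypoxia genes. With ACGTG or its complement alone it was 22 of 36 members (61.1%) against 18.5% of all genes. These windows held more CG pairs, which each core contains, with a median of 14 in the 50 member windows and 6 in all 32851 windows, and the shares were not matched for this. The 2 cores of *Slc16a3*, of the form ACGTG, lay at -27 and -14 from the RefSeq start. In *P4ha1* the cores began at -163, -126 and -16 and in *Aldoa* at -126. The core was present as well before members that were not called, such as *Slc2a1* (2 cores) and *Slc16a1* (4), so presence of the letters did not separate the called members from the rest.

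Of the genes of glucose entry, the transporter *Slc2a1* (GLUT1) did not pass the test. It stood at 86.8, 82.7, 137 and 130 CPM in BrT1, BrT2, Br53T1 and Br53T2, against 90.01, 239, 171, 156 and 110.1 CPM in vBrL, vBr53L, pBrL-1, pBrL-2 and pBr53L (log2 fold change -0.63 ± 0.34, adjusted p = 0.452). Hexokinase *Hk2*, which traps glucose in the cell, stood at 545, 493.1, 1288 and 719 CPM in BrT1, BrT2, Br53T1 and Br53T2. In the luminal mice it stood at 234, 231, 165, 586 and 309 CPM in that order, and pBrL-2 overlapped the tumors (1.18 ± 0.41, adjusted p = 0.231). *Hk2* took most of the hexokinase signal in every mouse, from 88.1% to 98.6% of *Hk1* and *Hk2* together on a scale of CPM per kilobase of annotated exon. Its relative *Hk1* stood at 48.8, 48.1, 69.8 and 15.1 CPM in the tumors and 35.2, 44.7, 30.2, 20.5 and 35.4 CPM in the luminal mice.

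Further down the pathway, *Tpi1* (triose phosphate isomerase), *Pkm* (pyruvate kinase) and *Eno1* (enolase) were above every luminal mouse in every tumor but did not pass the adjusted threshold in edgeR. *Tpi1* and *Pkm* were called by DESeq2 (adjusted p = 0.0239 and 0.00153) and by edgeR with all 7 luminal mice (0.0424 and 0.0243). *Tpi1* stood at 406, 970, 732 and 297 CPM in BrT1, BrT2, Br53T1 and Br53T2, against 160.1, 246, 169.8, 286 and 142 CPM in vBrL, vBr53L, pBrL-1, pBrL-2 and pBr53L (1.49 ± 0.41, adjusted p = 0.136). *Pkm* stood at 993, 1178, 1441 and 566 CPM in the same order, against 296, 430.1, 276, 265 and 352 CPM (1.56 ± 0.34, adjusted p = 0.0648). Leaving out 1 mouse led to a call of *Pkm* only for Br53T2, the tumor where it was lowest (adjusted p = 0.0354). For *Tpi1* the margin was narrow in Br53T2. *Eno1* stood at 171, 135, 127 and 135 CPM against 65.9, 97.0, 118, 84.9 and 91.7 CPM (0.49 ± 0.27, adjusted p = 0.454). The lactate dehydrogenase *Ldha* was among the strongest members in both tissues and overlapped, at 613, 819, 923 and 447 CPM in tumors and 359.9, 581, 552, 578 and 535 CPM in the luminal mice (0.30 ± 0.31, adjusted p = 0.723). *Pgk1*, *Pgam1*, *Gpi1*, *Pfkl*, *Pfkp* and *Ldhb* had log2 fold changes of 0.30 to 1.21, all with overlapping groups.

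Reads of several of these enzymes can belong to near-identical copies elsewhere. Of the 50-base stretches of their annotated transcripts, 53.9% in *Pgk1*, 47.2% in *Bnip3*, 36.2% in *Pgam1*, 25.99% in *Eno1* and 25.8% in *Pkm* also occurred in transcripts of other annotated genes, compared with 5.13% in *Aldoa*. The value for *Aldoa* leaves out stretches shared between the 2 annotation entries of that name. The share was 20.99% in *Ldhb*, 20.8% in *Bnip3l*, 17.0% in *Ankrd37* and 15.8% in *Gpi1*. Levels of these genes are therefore uncertain, since how the counting treated reads with several places is not given in the sources used here.

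In edgeR none of the regulators *Pfkfb3*, *Pfkfb4*, *Pdk1* and *Pdk3* was called. *Pfkfb3* makes fructose 2,6-bisphosphate, the allosteric activator of phosphofructokinase. It stood at 19.04, 17.7, 4.48 and 38.8 CPM in BrT1, BrT2, Br53T1 and Br53T2 and at 37.1 CPM in vBrL, 139 in vBr53L, 171 in pBrL-1, 52.1 in pBrL-2 and 201 in pBr53L. Only Br53T2 and vBrL overlapped (log2 fold change -2.74 ± 0.70, adjusted p = 0.109), and it was called by DESeq2 (adjusted p = 0.00215), by limma on means over cells (0.0493) and by edgeR with all 7 luminal mice (0.0443). A read was found in 16.2% to 31.9% of cells in tumors and in 42.9% to 76.1% in luminal mice. *Pdk1*, a mitochondrial kinase that inhibits pyruvate dehydrogenase, stood at 24.3, 145, 17.8 and 28.9 CPM in tumors and 46.7, 24.2, 38.5, 85.03 and 13.3 CPM in the 5 luminal mice (0.36 ± 0.73, adjusted p = 0.882). Its direction rested on BrT2, without which the log2 fold change was -0.99.

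The HIF subunits and hydroxylases were not called. *Hif1a*, whose protein is regulated mainly by its stability, stood at 127, 164, 36.9 and 185 CPM in BrT1, BrT2, Br53T1 and Br53T2, and at 56.7 CPM in vBrL, 15.1 in vBr53L, 80.4 in pBrL-1, 69.6 in pBrL-2 and 63.5 in pBr53L (1.05 ± 0.54, adjusted p = 0.421). All tumors but Br53T1 exceeded these 5 mice, and the *Brca1* wild type mice v53L (114 CPM) and p53L (123 CPM) came close to BrT1. *Epas1* (HIF2 alpha) stood at 4.80, 29.8, 12.5 and 59.9 CPM in tumors and 16.5, 32.01, 25.2, 21.4 and 29.3 CPM in the 5 luminal mice (-0.03 ± 0.67, adjusted p = 0.993). *Egln1* and *Egln3*, the oxygen-sensing hydroxylases, had log2 fold changes of 0.82 and 0.63 with adjusted p of 0.537 and 0.823.

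Of the 12 HIF targets, 9 had a log2 fold change above 0 and 3 below. *Vegfa*, the main angiogenic growth factor, stood at 123, 34.3, 33.6 and 77.1 CPM in BrT1, BrT2, Br53T1 and Br53T2, against 18.1, 31.2, 26.4, 33.2 and 31.6 CPM in vBrL, vBr53L, pBrL-1, pBrL-2 and pBr53L. Br53T1 exceeded pBrL-2 by less than 1 CPM, and the change was not called (1.09 ± 0.45, adjusted p = 0.314, and 0.65 without BrT1). *Bnip3*, a mitophagy receptor, stood at 36.8, 133, 41.9 and 52.7 CPM in tumors and 26.7, 15.3, 20.9, 9.09 and 16.6 CPM in the 5 luminal mice in the same order (1.82 ± 0.53, adjusted p = 0.158). Its relative *Bnip3l* was level, at 75.5 to 124 CPM in tumors and 66.9 to 104 CPM in luminal mice (-0.01 ± 0.29).

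The vasodilator peptide gene *Adm* was high in 3 tumors and not in the fourth. It stood at 130 CPM in BrT1, 134 in BrT2 and 157 in Br53T2 but at 9.16 CPM in Br53T1, with 6.39, 4.63, 11.1, 7.11 and 14.5 CPM in the 5 luminal mice (3.49 ± 0.71, adjusted p = 0.0539). Leaving out 1 mouse led to a call only for Br53T1, the tumor where *Adm* was low (log2 fold change 3.87, adjusted p = 0.014). That run is no support. *Car12* and *Car9* encode carbonic anhydrases at the cell surface that handle the acid made by glycolysis. *Car12* stood at 7.24, 237, 73.6 and 14.9 CPM in BrT1, BrT2, Br53T1 and Br53T2, against 4.76, 3.22, 5.50, 2.73 and 1.41 CPM in the luminal mice (4.53 ± 0.98, adjusted p = 0.0648). Without BrT1, the tumor where *Car12* was lowest, the adjusted p was 0.0498. DESeq2 called *Car12* (adjusted p = 2.15e-05), *Adm* (5.7e-05) and *Bnip3* (0.0283), and edgeR without a low-count filter called *Car12* (0.0491) and *Adm* (0.0435). With all 7 luminal mice edgeR called *Car12* (0.041) and neither of the others. A *Car12* read was found in 86.5% of cells of BrT2 and 8.51% of cells of BrT1. *Car9* stood at 3.55, 18.2, 7.34 and 1.65 CPM in tumors and at 1.27, 1.19, 12.98, 0 and 0 CPM in vBrL, vBr53L, pBrL-1, pBrL-2 and pBr53L (1.26 ± 1.85, adjusted p = 0.819). *Ndrg1*, a stress response gene, stood at 125.6, 46.96, 116 and 289 CPM in the 4 tumors and 185, 269.7, 398, 152 and 329.9 CPM in the 5 luminal mice (-1.06 ± 0.49, adjusted p = 0.366).

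**Figure D3:**
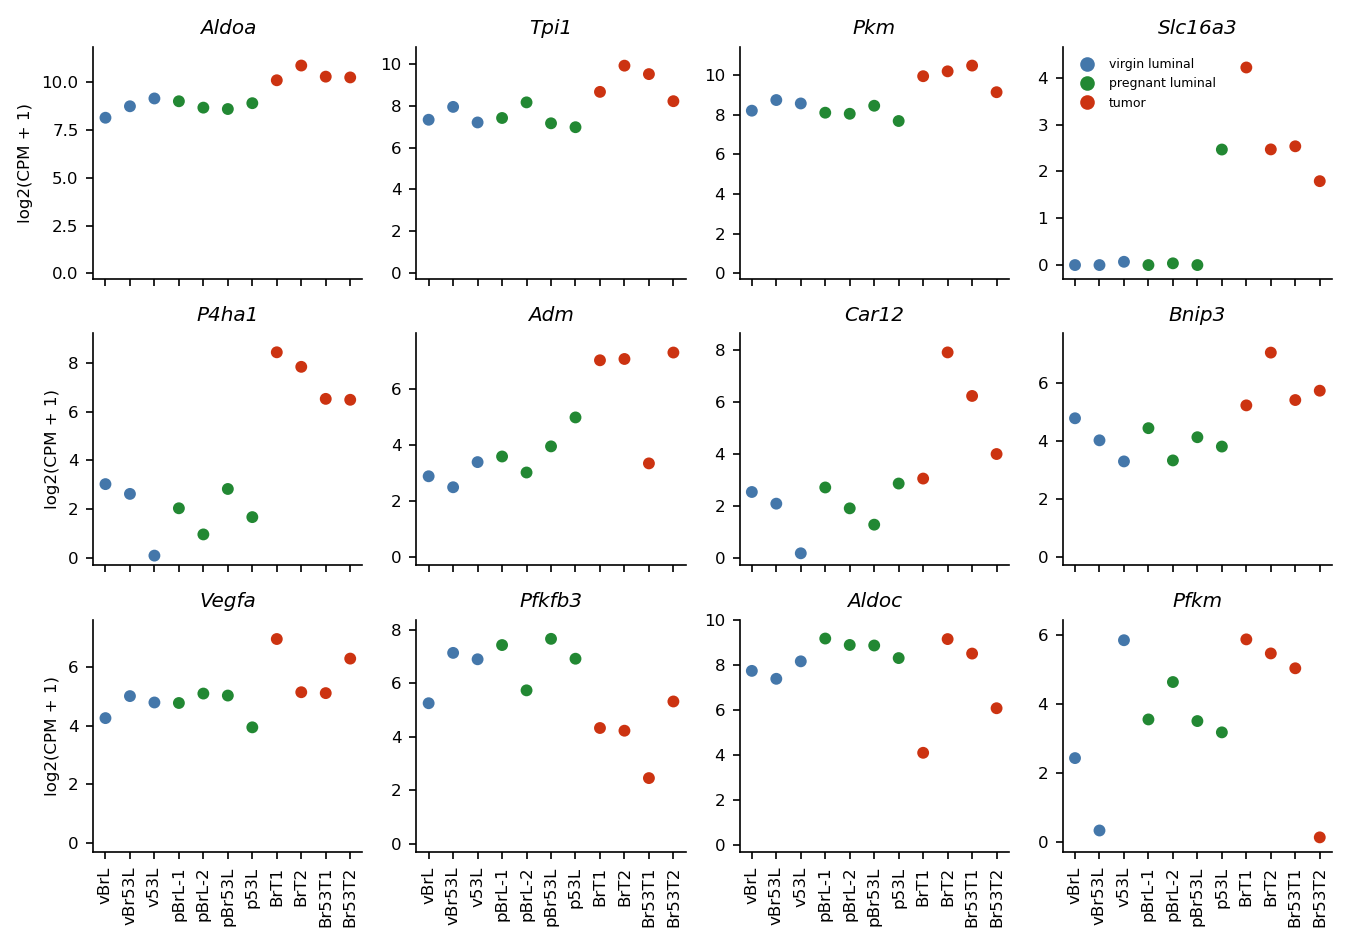
Level of 12 members in each of the 11 mice, as log2(CPM + 1), 1 point per mouse, colored by virgin luminal, pregnant luminal or tumor. *P4ha1* and *Aldoa* separated all tumors from all luminal mice, *Slc16a3* did so except for p53L (4.54 CPM), *Adm* was low in Br53T1 (9.16 CPM), *Aldoc* was lowest in BrT1 (16.2 CPM) and *Pfkm* was nearly absent in Br53T2 (0.0881 CPM).

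The members that were high differed between the 4 tumors. Of the 38 members, 18, 26, 19 and 15 in BrT1, BrT2, Br53T1 and Br53T2 were above all 5 *Brca1*-deficient luminal mice, and 5, 3, 4 and 3 were below all of them. Of the 12978 genes tested, 30.7%, 23.4%, 28.2% and 27.3% were above in the same tumors and 20.97%, 22.7%, 17.8% and 14.1% below. BrT2 held the most members, and without it the median log2 fold change of the members was 0.37. In BrT1 the highest of all mice were *Vegfa*, *P4ha1*, *Slc16a3*, *Pdk3*, *Pgk1*, *Pgam1*, *Eno1* and *Pfkm*. In BrT2 they included *Car12*, *Car9*, *Bnip3*, *Ankrd37*, *Pdk1*, *Tpi1* and *Aldoa*. In Br53T1 they were *Hk2*, *Pkm*, *Ldha* and *Ldhb* among others, and in Br53T2 *Adm*, *Hif1a* and *Epas1*.

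A library batch, as named by the first part of each cell's title, held both tumor and luminal cells once, with Br53T2 and pBrL-2. The 3 called members were higher in the tumor there. This had to be so, because for each of them every tumor was above every *Brca1*-deficient luminal mouse, and it is no separate support. *P4ha1* stood at 88.4 against 0.960 CPM, *Aldoa* at 1229 against 410 CPM and *Slc16a3* at 2.47 against 0.0260 CPM. Tumor origin and library batch cannot be told apart for the others. Genes of the dissociation response, set off when tissue is broken up, were higher on average in tumors but overlapped, at 5372 to 8393 CPM in tumors and 2088 to 5770 CPM in *Brca1*-deficient luminal mice for all 9 of 9 genes summed, and their part in the result was not tested. Caseins took 3.48% to 17.4% of luminal reads and at most 0.38% of tumor reads, and leaving them out kept 3 members called.

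Genes of the same pathways outside the 39 were counted as well. Of 26 listed genes of glycolysis, pyruvate dehydrogenase and the pentose phosphate pathway, 20 were tested, 0 were called higher and 1 lower (all genes 0.393% and 0.216%), with a median log2 fold change of -0.35 against 0.06 over all genes. The called gene was *Taldo1*, transaldolase of the pentose phosphate pathway (-2.03 ± 0.37, adjusted p = 0.0431). Of 24 listed hypoxia genes, 22 were tested and 0 were called, with a median of 0.68.

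Single cells were compared by how many HIF targets they held, as a description. After thinning to 100000 reads, the median number of the 12 HIF targets with a read per cell was 5, 6, 4 and 4 in BrT1, BrT2, Br53T1 and Br53T2, against 2 or 3 in every luminal mouse. Cells with a read of 6 or more targets made up 17 of 47 cells in BrT1 (36.2%, exact 95% binomial interval 22.7 to 51.5%), 20 of 37 in BrT2 (54.1%, 36.9 to 70.5%), 6 of 30 in Br53T1 (20.0%, 7.71 to 38.6%) and 8 of 51 in Br53T2 (15.7%, 7.02 to 28.6%). In luminal mice there was 1 such cell each in vBr53L, pBrL-1 and pBrL-2 and 0 in the others, where 0 of 35 to 53 cells allows a share of up to 5.66% to 8.57% by the limit of 3 counts and 6.72% to 10.0% by the exact interval. At 50000 reads the tumor shares were 27.7%, 40.5%, 10.0% and 15.7%, which left Br53T1 with 3 of 30 cells. Cells are not replicates, and the intervals cover counting error only. The median number of genes with a read at this depth was also higher on average in tumors, 3953 to 5036 against 2807 to 4289, and its part was not tested. The values overlapped, with 3976 genes in BrT2 and 3953 in Br53T2 against 4289 in pBrL-2.

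**Figure D4:**
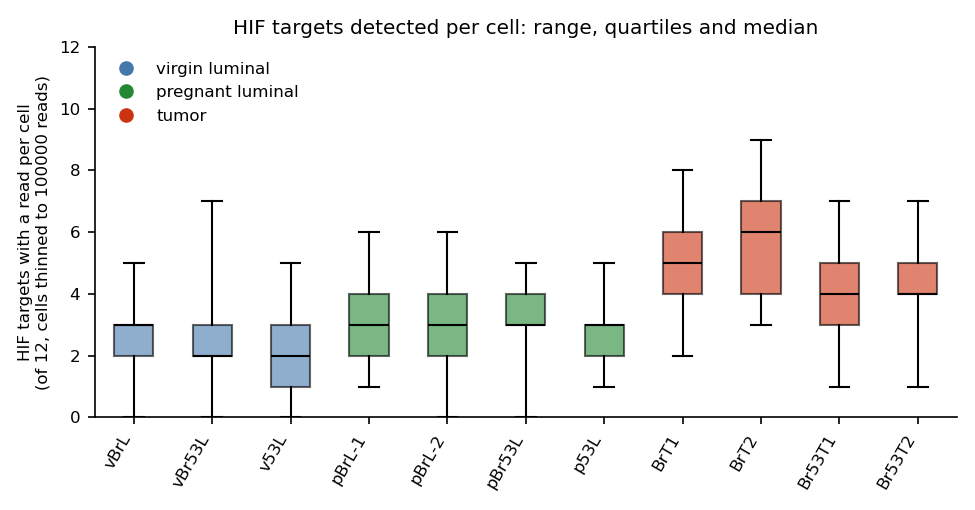
Number of the 12 HIF targets with a read in each cell after thinning to 100000 reads, by mouse; boxes span the quartiles, lines inside are medians and whiskers reach the lowest and highest cell. Medians lay between 4 and 6 in the tumors and 2 or 3 in the luminal mice.

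The 2 gene groups were also set beside each other cell by cell, as a description. The Spearman correlation over cells between the summed CPM of the glycolysis genes and of the HIF targets was 0.52 in BrT2 (37 cells), 0.27 in Br53T2 (51), 0.19 in BrT1 (47) and 0.05 in Br53T1 (30), and -0.30 to 0.22 in luminal mice. Both sums come from the same libraries and share their depth. Over pairs of single glycolysis genes the median correlation was 0.14, 0.19, 0.09 and 0.06 in BrT1, BrT2, Br53T1 and Br53T2 and 0.02 to 0.09 in luminal mice.

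Of 7 pairs of members with the same step or role, compared within each mouse as a log2 ratio of CPM + 1, 1 whose members were well measured in both groups did not overlap between tumors and *Brca1*-deficient luminal mice. *Aldoc* encodes another aldolase, known best from brain. *Aldoc* stood at 16.2, 574, 367 and 67.2 CPM in BrT1, BrT2, Br53T1 and Br53T2, against 215, 168, 584, 479 and 471 CPM in vBrL, vBr53L, pBrL-1, pBrL-2 and pBr53L. The log2 ratio of *Aldoc* to *Aldoa* was -6.01, -1.72, -1.78 and -4.17 in the tumors and -1.35 to 0.27 in those luminal mice, a difference of -3.21 (exact permutation test, two-sided, p = 0.00794, adjusted p = 0.1 over 14 tests). Without BrT1 the difference was -2.34 (exact permutation p = 0.0179, adjusted p = 0.125). Per kilobase of exon, *Aldoc* made up 1.29% to 21.3% of the 2 aldolases in tumors and 25.8% to 51.9% in the luminal mice.

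The ratio of *Slc16a3* to *Slc16a1*, the lactate transporter of most tissues, was -2.31, -3.23, -2.56 and -3.85 in the tumors and -7.47 to -4.30 in *Brca1*-deficient luminal mice, a difference of 2.78. With 0 or 2 reads of *Slc16a3* in each luminal mouse the pseudocount set this size (5.79 with 0.1 CPM and 0.79 with 10 CPM), and no test of it is given. The *Brca1* wild type mice v53L (-3.26) and p53L (-3.69) lay within the tumor range. *Slc16a1* itself stood at 91.4, 50.9, 33.3 and 49.1 CPM in tumors and 176, 28.8, 65.4, 19.2 and 69.3 CPM in the luminal mice, and was the larger of the 2 in every mouse. The ratios *Hk2*/*Hk1*, *Pfkp*/*Pfkl*, *Ldhb*/*Ldha* and *Epas1*/*Hif1a* had two-sided exact permutation p of 0.143 to 0.976 between tumors and luminal mice. *Eno2*/*Eno1* differed by -0.21, and by 0.88 with a pseudocount of 0.1 CPM. No test of it is given, because *Eno2* had 2, 1 and 1 reads in pBrL-1, pBrL-2 and pBr53L. Of these genes, *Pfkl* stood at 49.2, 264, 276 and 60.2 CPM in tumors and 47.3, 28.03, 109, 77.8 and 68.2 CPM in luminal mice. *Pfkp*, the platelet type, stood at 65.1, 221, 95.8 and 131 and 56.6, 130.2, 40.8, 32.6 and 67.5 CPM. Neither phosphofructokinase separated the groups. *Ldhb*, which favors the use of lactate, stood at 103, 218, 291 and 169 and 131, 142, 182, 172 and 52.1 CPM. *Eno2* stood at 0.552, 13.1, 1.29 and 0.407 CPM in tumors. None of the 14 tests passed an adjusted p of 0.05.

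**Figure D5:**
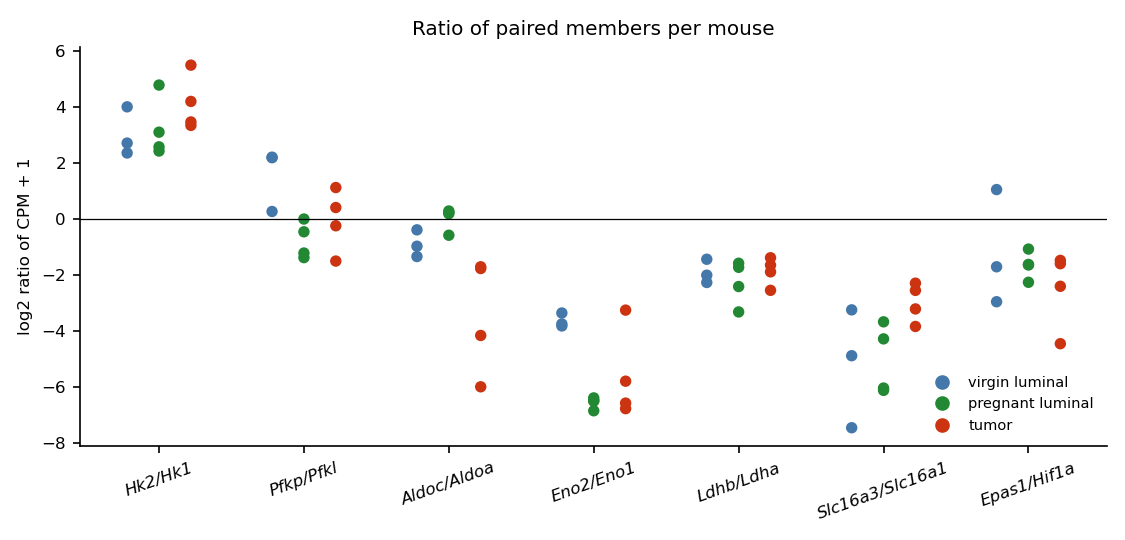
log2 ratio of CPM + 1 for 7 pairs of members, 1 point per mouse, colored by virgin luminal, pregnant luminal or tumor. *Aldoc*/*Aldoa* was lowest in the tumors (-6.01 to -1.72), and *Eno2*/*Eno1* split virgin (-3.83 to -3.37) from pregnant luminal mice (-6.86 to -6.41).

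The second comparison asked what pregnancy changed in luminal cells (4 pregnant against 3 virgin mice, with genotype in the model). In edgeR 0 of the 37 members tested were called at an adjusted p of 0.05, against 0.0159% of all genes (2 of 12615). An unadjusted p under 0.05 was found for 4 of the 37 members and for 1229 of the 12615 genes, so the shares were close. DESeq2 called 4 members (*Aldoc*, *Egln3*, *Eno2* and *Pfkl*) and limma 0, where they called 967 and 40 of all 12615 genes. The median log2 fold change was 0.10 over the members and 0.12 over all genes. *Pfkl*, *Aldoc* and *Ankrd37* were higher in every pregnant than in every virgin mouse and *Eno2* was lower, against 6.32% of all genes higher and 5.58% lower.

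*Eno2*, the enolase known best from neurons, had 3.69, 8.47 and 1.54 CPM in vBrL, vBr53L and v53L and 4 reads in all in the 4 pregnant mice (2, 1, 1 and 0). It could enter the test only through the virgin mice, so no test of it is given and its call by DESeq2 is no support. After thinning, 1 cell in each virgin mouse had a read (1 of 35, 1 of 39 and 1 of 40), so the virgin level rested on single cells. *Pfkl*, the liver type of phosphofructokinase, stood at 47.3, 28.03 and 12.7 CPM in vBrL, vBr53L and v53L and at 109, 77.8, 68.2 and 62.8 CPM in pBrL-1, pBrL-2, pBr53L and p53L (1.5 ± 0.44, adjusted p = 0.407). *Aldoc* stood at 215, 168 and 289 CPM in the virgin and 584, 479, 471 and 319 CPM in the pregnant mice in the same order (1.06 ± 0.32, adjusted p = 0.421). *Ankrd37*, a HIF target of little known function, stood at 0, 0.250 and 0.719 CPM and 3.93, 1.78, 3.19 and 0.960 CPM (4.02 ± 2.91, adjusted p = 0.733). After thinning to 100000 reads, *Ankrd37* had a read in 1 or 2 cells of each pregnant mouse, so its level rested on very few cells. For *Pfkl* and *Aldoc* each of the 4 pregnant mice was above the virgin mice, although neither passed the threshold in edgeR; DESeq2 called both (adjusted p = 0.0245 and 0.0496). With library batch as a block 0 members and 42 of all genes were called. Within library batch SC7 (pBr53L against vBr53L) *Pfkl* stood at 68.2 against 28.03, *Aldoc* at 471 against 168 and *Eno2* at 0.00993 against 8.47 CPM. Within SC9 (p53L against v53L) the values were 62.8 against 12.7, 319 against 289 and 0 against 1.54 CPM. The directions within both batches followed from the lack of overlap between the groups and are no separate support.

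As ratios, *Pfkp*/*Pfkl* was 0.25 to 2.20 in virgin and -1.39 to -0.01 in pregnant mice (difference -2.32), with an exact two-sided permutation p of 0.0286, the smallest that 35 splits allow, and an adjusted p of 0.1. *Eno2*/*Eno1* differed by -2.92, a size set by the pseudocount (-5.76 with 0.1 CPM and -1.09 with 10 CPM), and is given without a test because of its 4 reads in pregnant mice. The glycolysis sum was 2466 to 3213 CPM in virgin and 2654 to 3630 CPM in pregnant mice, and the hypoxia sum 447 to 559 and 397 to 721 CPM, so the groups overlapped for both.

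In the last 2 comparisons edgeR called 0 members. Between the 2 tumors labelled Br53 and the 2 labelled Br, where *Trp53* was higher in the former (67.2 and 140 against 5.05 and 49.8 CPM), edgeR tested 13477 genes and called 0% (DESeq2 called 315 genes, and in edgeR 537 were under 0.05 before adjustment). DESeq2 and limma called 0 members, and 1 member (*P4ha1*) had an unadjusted p under 0.05 (log2 fold change -1.73 ± 0.60, adjusted p = 1). The member median was -0.44, against 0.00 over all genes, and turned to 0.18 without BrT2. Between the 5 *Brca1*-deficient and the 2 *Brca1* wild type luminal mice, with stage in the model, edgeR tested 13709 genes and called 0% (DESeq2 called 518 genes, and in edgeR 818 were under 0.05 before adjustment). DESeq2 called 1 member (*P4ha2*), limma 0, and 3 members had an unadjusted p under 0.05. *P4ha2* stood at 2.58 to 30.0 CPM against 0.0744 and 0 CPM, from 3 and 0 reads in the wild type mice, so it could enter the test only through the *Brca1*-deficient mice and its call by DESeq2 is no support. *Pdk3* stood at 18.6 to 44.5 against 5.28 and 8.36 CPM (1.88 ± 0.73, adjusted p = 0.778), without overlap, as in 8.21% of all genes. *Hif1a* was lower without overlap, as in 3.12% of all genes, at 15.1 to 80.4 against 114 and 123 CPM (-1.40 ± 0.49, adjusted p = 0.778). Genotype and library batch cannot be told apart in these luminal mice. Both *Brca1* wild type mice also had *Trp53* fl/+, which among the *Brca1*-deficient mice only vBr53L and pBr53L had. The model had no term for *Trp53*.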

How the data were processed

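The authors deposited a table of raw read counts with 1 column for each cell, made by trimming with sickle and Trim Galore 0.4.1, aligning to mm10 with STAR 2.5.3a and counting with Subread 1.5.3. The reads had been filtered for quality and length in the first 2 steps. The annotation and use of strand were not given in the sources used here. Libraries were SMARTer and Nextera XT without molecular identifiers, so PCR copies count separately. Doublets had been inspected under a microscope and were not called again. For each mouse the counts of its cells were added up, and all genes were tested by the quasi-likelihood method of edgeR 4.0.16 after filterByExpr and TMM scaling, calling an adjusted p under 0.05. DESeq2 1.42.0 and limma 3.58.1 were alternatives. Paired members were compared by exact permutation over mice on log2 ratios with a pseudocount of 1 CPM. Nothing in the labels says more of replicates than that they are separate mice. Cells were thinned to 100000 reads, which left out 0 cells. Alternatives changed scaling, filter, caseins, cells, arms, covariates and single mice. The edgeR step was also run on simulated counts, whose outcome is not given here and is not used as support. The members, lists and the rule for named genes (called members, members with no overlap and an absolute log2 fold change of at least 1, paired members and 10 fixed genes by mouse, others by range) were chosen with earlier results of these data known. The number of 6 HIF targets per cell was set after the values were seen.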

Additional observations from a re-analysis of the deposited data

Results flagged for a closer look

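Of 192 groups of 4 to 7 mice examined for 1 mouse far from the rest, 16 had one by Dixon's test at the 95% level, where chance gives about 1 in 20, and no explanation was tested. Values are log2(CPM + 1) unless named as ratios. Among tumors, *Pfkm*, the muscle phosphofructokinase, was at 0.12 in Br53T2 against 5.04 to 5.89 in the others, and *Adm* at 3.35 in Br53T1 against 7.03 to 7.30. The mouse p53L stood apart with *Slc16a3* at 2.47, both among all luminal and among pregnant mice, with *Ddit4* at 2.62 among pregnant mice (others 1.37 to 1.47), and with a log2 ratio of *Aldoc* to *Aldoa* of -0.59 (others 0.18 to 0.27). The mouse vBr53L stood apart with *Hif1a* at 4.01, among all luminal and among *Brca1*-deficient mice, with *Ddit4* at 3.21 (others 1.37 to 1.81), and with a log2 ratio of *Epas1* to *Hif1a* of 1.04 (others -1.72 to -1.09). *Car9* was at 3.81 in pBrL-1 among all luminal and among pregnant mice. In *Brca1*-deficient luminal mice *Ldha* was at 8.49 in vBrL (others 9.07 to 9.19), *Ldhb* at 5.73 in pBr53L (others 7.04 to 7.52) and *Slc16a3* at 0.037 in pBrL-2, where the others were at 0. *Slc16a1* was at 4.33 in pBrL-2 among pregnant mice (others 6.05 to 6.16).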

How the results depend on the processing

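Between tumors and *Brca1*-deficient luminal mice 3 members were called, against 5 with library size alone, 9 with DESeq2, 5 with limma on means over cells, 6 with all 7 luminal mice, and 0 with only pregnant or only virgin luminal mice; leaving out 1 mouse at a time gave 0 to 3. All genes called were 79, against 808 with DESeq2, 352 with limma, 124 with library size alone, 129 without a low-count filter, 213 with all 7 luminal mice, 52 with cells of at least 4000 genes, 44 with only pregnant and 0 with only virgin luminal mice, and 11 to 94 leaving out 1 mouse. Library size alone moved the median log2 fold change of all genes from 0.06 to 0.20, and that of members from 0.79 to 0.91. DESeq2 called 4 members for pregnancy and 1 for *Brca1* (967 and 518 genes, and 315 genes between tumor genotypes). Between tumor genotypes edgeR called 0 genes, but 52 without BrT1, 228 without BrT2 and 295 without a low-count filter. For *Brca1* it called 0, but 127 without p53L and 10 without a low-count filter. For pregnancy it called 2, but 366 without a low-count filter, 42 with library batch as a block, 17 with no covariate and 0 to 4 leaving out 1 mouse. Members called stayed at 0 in all of these. Without 1 mouse *Pdk1* ranged from -0.99 to 0.75 between tumors and luminal mice. Differences of log2 ratios also changed sign: between tumors and luminal mice *Eno2*/*Eno1* was 0.88 with a pseudocount of 0.1 CPM and -0.997 to 0.29 without 1 mouse, *Pfkp*/*Pfkl* -0.42 to 0.53 and *Ldhb*/*Ldha* -0.18 to 0.37. Between pregnant and virgin mice *Slc16a3*/*Slc16a1* was -0.11 with a pseudocount of 10 CPM and -0.96 to 1.14 without 1 mouse, *Epas1*/*Hif1a* 0.024 as a mean over cells and -1.32 to 0.68 without 1 mouse, and *Hk2*/*Hk1* -0.32 to 0.69. The share of cells with 6 or more HIF targets was 0% in vBr53L and in pBrL-2 at 50000 reads, and moved from 20.0% to 10.0% in Br53T1, 54.1% to 40.5% in BrT2 and 36.2% to 27.7% in BrT1. The pseudocount also set the size of *Slc16a3*/*Slc16a1* between tumors and luminal mice (5.79 with 0.1 CPM, 0.79 with 10 CPM) and of *Eno2*/*Eno1* between pregnant and virgin mice (-5.76 and -1.09). The cause of these changes was not tested. Single mice per group and 1 batch per tumor limit every comparison.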
